A study of Mus musculus with 6 samples.

Results

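The retinoic acid system of mouse haematopoietic stem cells was described through 10 genes, chosen by symbol: the retinoic acid receptors Rara, Rarb and Rarg, the retinoid X receptors Rxra and Rxrb, the enzymes Rdh10, Aldh1a1, Aldh1a7 and Cyp26b1, and the retinol transporter Stra6. All 10 had a single row each among the 55471 gene IDs of the table. The libraries came from stem cells sorted as Lin- Kit+ Sca1+ CD48- CD150+ from mice whose genotype is labelled ETV6-RUNX1, a fusion of transcription factor genes found in childhood B-cell precursor leukaemia. Uninduced mice received no doxycycline (n = 3 libraries) and induced mice received it in food for 2 weeks (n = 3 libraries). Every library carried the transgene, and no library from doxycycline-fed mice without the fusion was used here, so induction and the drug cannot be told apart. Strain, age, sex and the promoter that drives the transgene are not given in the sources used here, nor is whether each library came from a separate animal, so the p-values measure the spread between these libraries only. No row of the table separates fusion transcripts from the mouse genes.

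Retinoic acid is made from vitamin A in a pair of steps. Retinol dehydrogenases such as Rdh10 oxidise retinol to retinal, and aldehyde dehydrogenases of the Aldh1a family oxidise retinal to retinoic acid. Cyp26 enzymes then degrade it. Inside the nucleus retinoic acid binds a receptor of the RAR family, which sits on DNA as a pair with a receptor of the RXR family. Without ligand the pair recruits corepressors, and with ligand it recruits coactivators. In mouse haematopoietic stem cells, Cyp26b1 and retinoic acid signalling are known for their part in keeping dormant stem cells, Rarg for supporting self-renewal, and Aldh1a1 as an abundant enzyme of the stem cell compartment.

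Values were TPM, which corrects reads for the length of the gene and the size of the library and so keeps no sequencing depth. Depth was therefore unknown. Differences were tested with limma on log2(TPM + 1), over the 13470 genes whose mean reached 1 TPM, and a gene was called at a Benjamini-Hochberg adjusted p under 0.05. On this scale the median gene had a log2 change of -0.35, while nuclear protein-coding genes held 26.6% to 32.9% of the TPM in uninduced and 20.5% to 23.2% in induced libraries. Median-of-ratios scaling, which divides each library by its median ratio to the average library, brought the median to 0.0032, and was used as an alternative scale. The stem cell markers Kit, Ly6a, Slamf1, Procr, Hlf and Mecom were above 0 in every library; of 9 stem cell markers 3 were called higher (Ly6a, Procr and Hlf) and 2 lower (Kit and Ctnnal1), or 4 and 0 after median-of-ratios scaling. Of 6 B cell markers 4 were at 0 throughout (Cd79a, Ebf1, Pax5 and Igll1), and the 1 tested, Cd79b, was at 4.21 to 9.86 TPM in uninduced and 3.11 to 3.85 TPM in induced libraries (adjusted p 0.197 by limma). Of 6 T and NK cell markers 5 were at 0 throughout. The other one, Nkg7, a cytotoxic granule gene, was at 6.21, 15.8 and 5.84 TPM without induction and listed at 0 in each induced library. It reached the expression minimum only through the uninduced libraries, so its call is not counted. Most erythroid markers moved with the groups: 5 of 7 were called higher, and the list's summed level was 51.2 to 58.9 TPM in uninduced and 397 to 464 TPM in induced libraries. The largest induced means were those of globin genes, Hbb-bs (177 TPM), Hba-a1 (98.5), Hbb-bt (90.6) and Hba-a2 (54.6), before Slc4a1 (13.8). Klf1 (adjusted p 0.260 by limma) and Epb42 (adjusted p 0.547) overlapped between groups and were not called. Myeloid markers summed to 163.6 to 200.8 TPM in uninduced and 197.1 to 234.3 TPM in induced libraries. Of the 5 tested, Prtn3 was called higher (18.9 ± 2.50 and 42.3 ± 6.18 TPM, SD, n = 3 each), and 2 were after median-of-ratios scaling. The second was Lyz2, with means of 97.9 TPM in uninduced and 131 TPM in induced libraries. The others had lower means with induction: Mpo (19.6 and 7.84 TPM), Elane (7.33 and 3.41 TPM) and S100a8 (32.7 and 22.7 TPM). Their groups overlapped and they were not called. The median log2 change of the tested myeloid markers was -0.56. Macrophage markers summed to 3.41 to 6.37 TPM in uninduced and 10.8 to 16.3 TPM in induced libraries, with 0 of 3 tested called. Among the 5 megakaryocyte markers tested, Pf4 was called higher and Gp9 lower, the last on the deposited scale only. Ppbp, with means of 0.292 TPM in uninduced and 11.0 TPM in induced libraries, was also called higher. It reached the expression minimum only through the induced libraries, so its call is not counted. Itga2b (47.0 and 34.4 TPM, without overlap, adjusted p 0.183 by limma) and Gp1ba (2.21 and 1.34 TPM, with overlap) were not called. The part of these markers in the results below was not tested.

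Of the 10 genes, 8 passed the expression minimum, each with at least 1 TPM in every library. In induced cells Aldh1a1 fell and Rarg rose, and the other 6 did not pass the test. Aldh1a1 was 4.35-fold lower and Rarg 3.18-fold higher by the ratio of mean TPM. So 1 of 8 was called higher, where 1.29% of all tested genes were, and 1 of 8 was called lower, where 10.2% were, or 11.5% of all genes in either direction. After median-of-ratios scaling the same pair was called, against 2.88% of genes called higher and 3.1% called lower. Groups did not overlap for Rarg and Cyp26b1, both higher in induced cells, where 4.83% of all tested genes had this pattern. They did not overlap for Aldh1a1 and Rara, both lower, a pattern seen in 28.2% of tested genes. The median log2 change of the 8 was -0.070 on the deposited scale, beside -0.35 for all genes, and 0.29 after scaling, beside 0.0032.

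**Figure D1:**
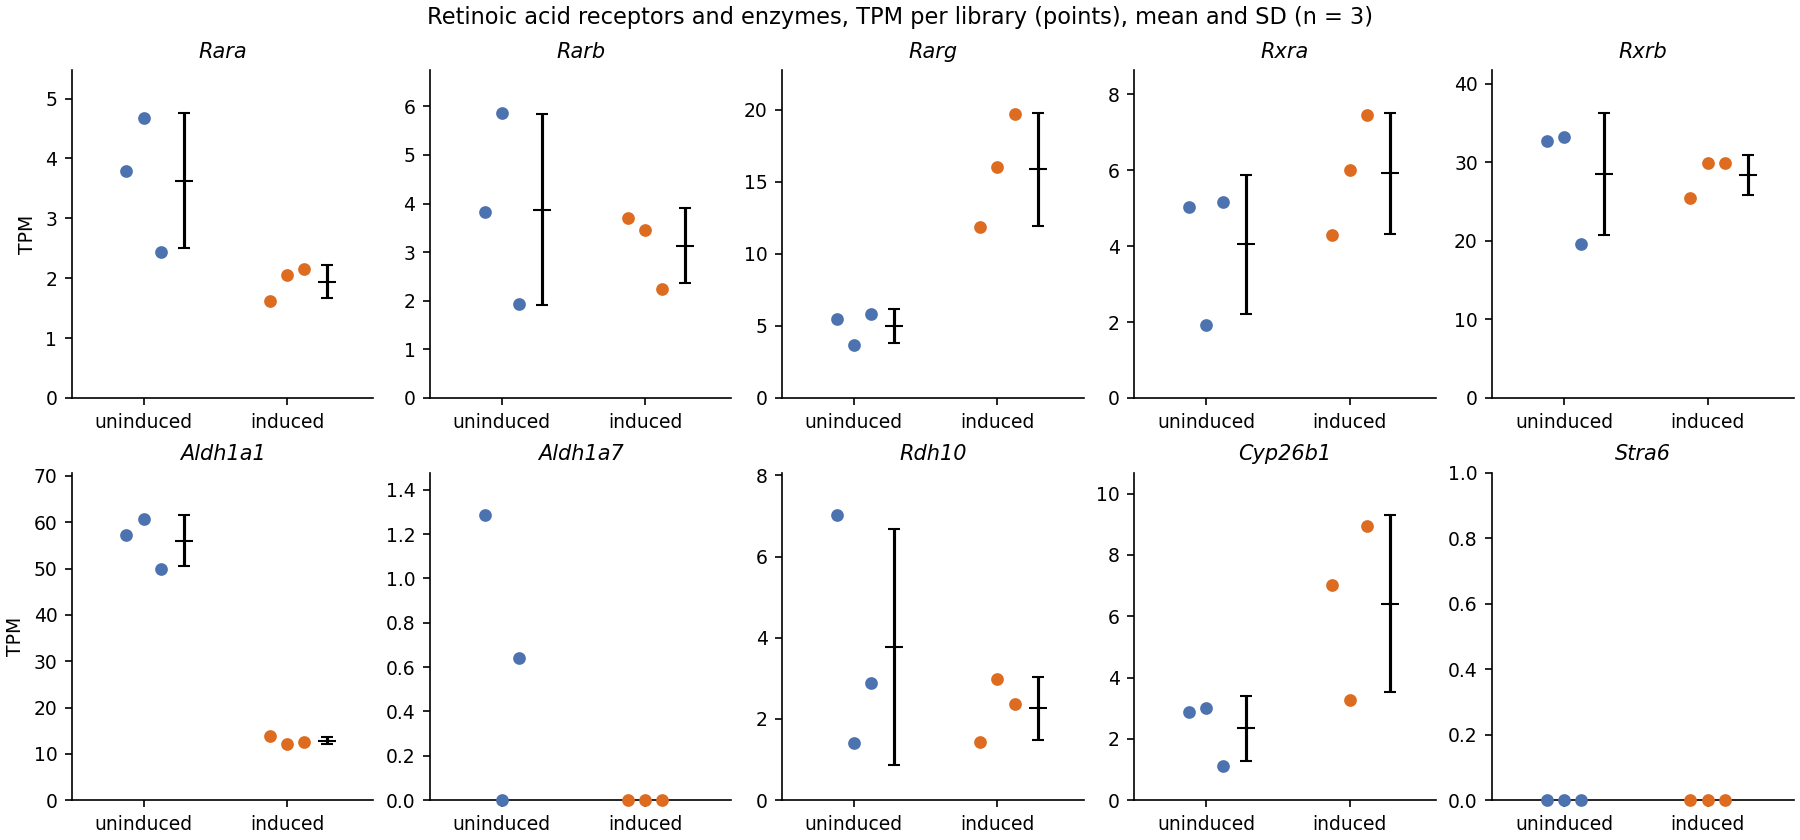
TPM of each of the 10 genes in each library, uninduced (blue) and induced (orange); black marks give the mean and SD of 3 libraries, left out for genes with a value of 0, and each panel has its own axis from 0. Aldh1a1 lies at 49.97 to 60.7 TPM in uninduced and 12.2 to 13.8 TPM in induced libraries, and Rarg at 3.66 to 5.81 and 11.9 to 19.7 TPM.

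**Figure D2:**
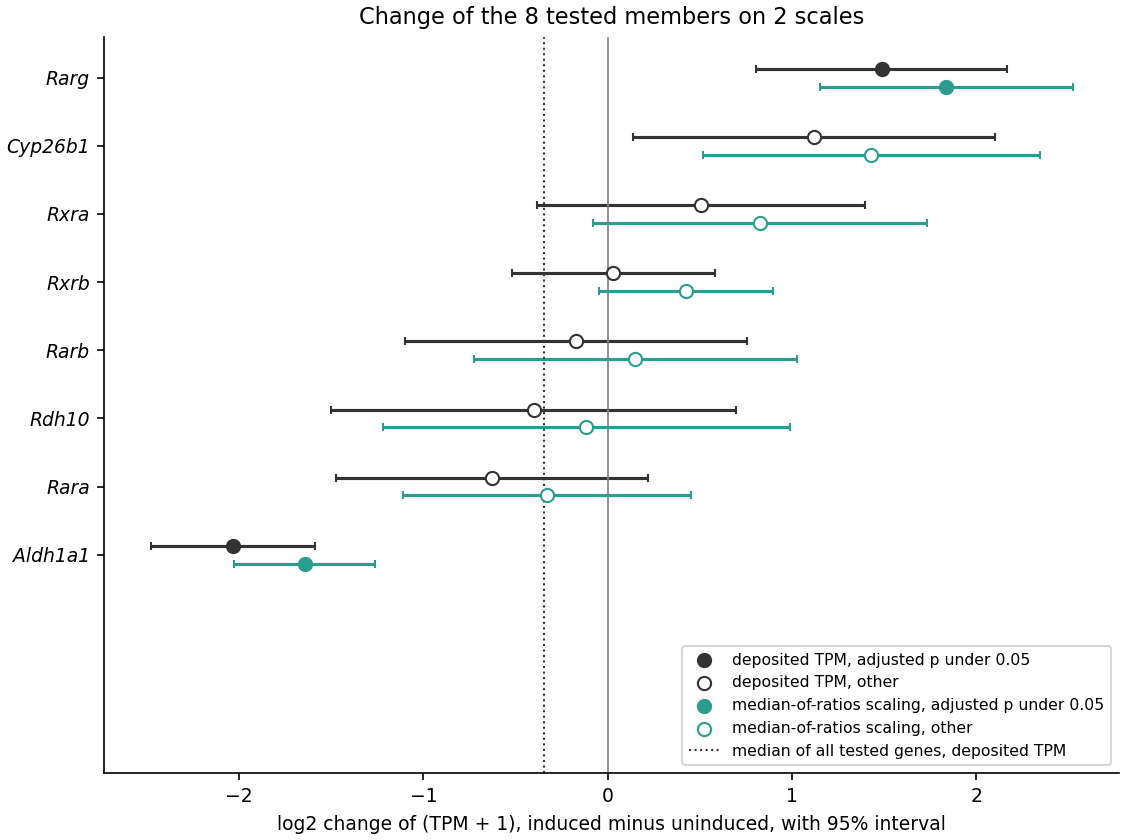
Change of the 8 tested genes as log2(TPM + 1), induced minus uninduced, on the deposited scale (black) and after median-of-ratios scaling (green), with 95% intervals from limma; filled points have an adjusted p under 0.05. Rarg and Aldh1a1 are the filled points on both scales, and the dotted line marks the median gene at -0.35.

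Aldh1a1 (ENSMUSG00000053279, GRCm38 chr19:20492715-20643465, plus strand) encodes a retinaldehyde dehydrogenase. It was at 57.3, 60.7 and 49.97 TPM without induction and 13.8, 12.2 and 12.6 TPM with induction. All induced libraries lay far below all uninduced ones, and the spread within each group was small. The mean fell from 56.0 ± 5.50 to 12.9 ± 0.820 TPM (SD, n = 3 each), and the log2 difference was -2.04 (SE 0.20, adjusted p 0.000652 by limma). Of the 13470 tested genes, 162 had a lower change. After median-of-ratios scaling the change was -1.64 (SE 0.17, adjusted p 0.0015 by limma). Aldh1a1 was called lower in each of the 15 alternatives, with adjusted p of 0.000398 to 0.00784. In bulk RNA, fewer cells of a type that hold a transcript and less of it per cell cannot be told apart.

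Aldh1a7 (ENSMUSG00000024747, GRCm38 chr19:20692953-20727562, minus strand) is a close relative of Aldh1a1, and its gene ends 49487 bp away on the other strand. It was at 1.29, 0 and 0.642 TPM without induction and listed at 0 in all 3 induced libraries. Its mean was under the expression minimum, so it was not tested in the fit above. The transcripts Aldh1a1-201 and Aldh1a7-201 were identical at 90.3% of 2044 aligned bases, so a few reads could be split between the genes and the low Aldh1a7 values are uncertain.

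The relatedness extends into the promoters, which are shown because the levels of these genes lay far apart. RefSeq promoter windows (GRCm38.p6, 250 bases before to 50 after the start) were available for 9 of the 10 genes. An Aldh1a1 window and the Aldh1a7 window were identical at 83.5% of 279 aligned bases. The stretch from base -90 to base 50 around each start holds 5 mismatches, which are in capitals:
Aldh1a1 (GRCm38.p6 chr19:20601878-20602017, plus strand): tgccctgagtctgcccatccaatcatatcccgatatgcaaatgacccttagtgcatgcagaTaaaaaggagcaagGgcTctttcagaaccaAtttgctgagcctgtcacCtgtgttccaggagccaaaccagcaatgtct
Aldh1a7 (GRCm38.p6 chr19:20727507-20727646, minus strand): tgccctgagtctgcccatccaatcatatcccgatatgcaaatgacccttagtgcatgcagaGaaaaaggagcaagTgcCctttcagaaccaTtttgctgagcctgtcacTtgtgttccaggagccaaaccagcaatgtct
Both windows hold a hexamer bound by RAR and RXR, as spelled out for Rarb below, at bases -49 to -44, reading against the gene. With this promoter stretch in common, Aldh1a1 stood at 49.97 TPM or more in uninduced libraries and Aldh1a7 at 1.29 TPM or less.

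Rdh10 (ENSMUSG00000025921, GRCm38 chr1:16105774-16133734, plus strand) encodes the retinol dehydrogenase of the first step. It was at 7.02, 1.42 and 2.88 TPM without induction and 1.43, 2.98 and 2.38 TPM with induction. The groups overlapped, and 1 uninduced library was well above the others. Its log2 change was -0.40 (95% interval -1.499 to 0.70, adjusted p 0.635 by limma) and became 0.061 without uninduced replicate 1. After median-of-ratios scaling it was -0.12 (adjusted p 0.923). Stra6 (ENSMUSG00000032327, GRCm38 chr9:58063788-58153996, plus strand), the membrane receptor that takes up retinol from its plasma carrier, was listed at 0 in all 6 libraries. A value of 0 in a table without counts gives no detection limit.

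Cyp26b1 (ENSMUSG00000063415, GRCm38 chr6:84571414-84593908, minus strand) encodes a retinoic acid hydroxylase. It was at 2.89, 3.02 and 1.12 TPM without induction and 7.03, 3.27 and 8.94 TPM with induction. Every induced library was above every uninduced one, but induced replicate 2 was only just above. The means were 2.35 ± 1.06 and 6.41 ± 2.88 TPM (SD, n = 3 each), with a log2 change of 1.12 (SE 0.44, 95% interval 0.14 to 2.10). The adjusted p from limma was 0.132, so Cyp26b1 did not pass. After median-of-ratios scaling the change was 1.43 with an adjusted p of 0.076, and rescaling to nuclear protein-coding genes gave 1.46 with an adjusted p of 0.0497. Over its 14 alternatives the adjusted p was 0.0497 to 0.328, and the direction was the same in each. The log2 change ranged from 0.61, with a pseudocount of 5, to 1.47, without induced replicate 2.

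Set against each other within a library, where a constant scaling factor cancels, the enzyme that makes retinoic acid and the one that degrades it took different proportions. The ratio of Aldh1a1 TPM to Cyp26b1 TPM was 19.8, 20.1 and 44.5 in the uninduced libraries and 1.96, 3.73 and 1.41 in the induced libraries. The groups did not overlap, and Aldh1a1 was the higher of the pair in all 6 libraries. The ratio was chosen after the values were seen and is given as a description.

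Among the receptors that bind retinoic acid, Rarg stood apart. Rarg (ENSMUSG00000001288, GRCm38 chr15:102234938-102257517, minus strand) was at 5.50, 3.66 and 5.81 TPM without induction and 11.9, 16.1 and 19.7 TPM with induction. The lowest induced library was above the highest uninduced library. The mean rose from 4.99 ± 1.16 to 15.9 ± 3.92 TPM (SD, n = 3 each), and the log2 difference was 1.49 (SE 0.31, adjusted p 0.0151 by limma). Of all tested genes, 168 had a higher change. After median-of-ratios scaling the change was 1.84 (SE 0.30, adjusted p 0.0124 by limma). Rarg was called in 13 of 15 alternatives. The call was lost without induced replicate 2 (1.46, adjusted p 0.0655 by limma) and without induced replicate 3 (1.32, adjusted p 0.0595 by limma).

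Rara (ENSMUSG00000037992, GRCm38 chr11:98927818-98974942, plus strand), the receptor gene rearranged in acute promyelocytic leukaemia, had the opposite sign. It was at 3.80, 4.67 and 2.43 TPM without induction and 1.62, 2.05 and 2.15 TPM with induction. The groups did not overlap, but the gap between uninduced replicate 3 and the highest induced library was small. The log2 change was -0.63 (SE 0.38, 95% interval -1.48 to 0.22, adjusted p 0.316 by limma), and after median-of-ratios scaling it was -0.33 (adjusted p 0.641). Rara passed in none of its 14 alternatives, with adjusted p of 0.191 to 0.648.

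Rarb (ENSMUSG00000017491, GRCm38 chr14:16430839-16819156, minus strand) is the classical gene that retinoic acid switches on through its own promoter. It was at 3.82, 5.86 and 1.93 TPM without induction and 3.70, 3.45 and 2.25 TPM with induction. The groups overlapped and the induced libraries lay within the uninduced range. The log2 change was -0.17 (SE 0.42, 95% interval -1.10 to 0.76, adjusted p 0.825 by limma) and was 0.15 after median-of-ratios scaling (adjusted p 0.871). On the deposited scale it was 0.12 without uninduced replicate 2, so its sign depended on the scale and on single libraries. Rarb overlaps Top2b, a DNA topoisomerase gene on the other strand at 33.6 to 41.8 TPM in uninduced and 18.7 to 21.5 TPM in induced libraries. Whether the counting used strand is not given in the sources used here, so reads from the pair may not have been told apart.

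The Rarb promoter is shown because Rarb is a known direct target and carries a spaced repeat of receptor hexamers. Receptor hexamers were searched on both strands as AGGTCA itself, the variant AGTTCA, the variant GGGTCA and the variant GGTTCA. A spaced repeat was any 2 of them in the same direction with 5 bases between, so each repeat also counts among the hexamers. Of 32851 RefSeq promoter windows, 43.7% hold a hexamer and 0.0974%, or 32 windows, hold the repeat spaced by 5. Of the 10 genes Rarb alone had the repeat in a window, and Cyp26a1, a related retinoic acid hydroxylase known as a direct target, had it too. Both are shown with the hexamers of the repeat in capitals, and a further GGGTCA of Rarb, at bases -83 to -78, is in lower case:
Rarb (GRCm38.p6 chr14:16575473-16575569, minus strand): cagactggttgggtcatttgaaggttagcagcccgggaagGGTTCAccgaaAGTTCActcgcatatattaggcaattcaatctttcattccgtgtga
Cyp26a1 (GRCm38.p6 chr19:37697736-37697832, plus strand): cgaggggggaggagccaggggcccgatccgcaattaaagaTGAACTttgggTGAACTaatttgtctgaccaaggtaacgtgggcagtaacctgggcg
The repeat lies at bases -53 to -37 in Rarb and, on the other strand, at bases -32 to -16 in Cyp26a1. Rarb did not pass the test, and every library had Cyp26a1 at 0 TPM. The 32 windows belong to 31 genes, of which 18 were in the table and 3 were tested, Rarb, Blvrb and Ppbp. Ppbp, a platelet chemokine gene, was at 0.876, 0 and 0 TPM in uninduced and 11.9, 14.6 and 6.64 TPM in induced libraries. It reached the expression minimum only through the induced libraries, so nothing is read from its call. Blvrb, a biliverdin reductase gene, was at 27.2, 25.2 and 9.47 TPM in uninduced and 10.8, 17.1 and 21.8 TPM in induced libraries, which overlap (log2 change -0.22, adjusted p 0.761 by limma). These letters are a description of the windows and show no binding.

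Single hexamers were common: 8 of the 19 windows of these genes held at least 1, beside 43.7% of all windows, and these belonged to 7 of the 9 genes. Motifs of the RUNX family, whose DNA-binding domain the fusion keeps, were searched as TGTGGT and the variant TGCGGT on both strands. They were in 22.4% of all windows and in 3 of the 19 windows of these genes, 1 each in Rara, Rarg and Stra6. The Cyp26b1 window and the windows of Aldh1a1 held no match to the RUNX letters.

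Because TPM is corrected for length, the 3 RAR genes can be added within a library. In uninduced libraries they had like levels, with means of 3.63 ± 1.13 (Rara), 3.87 ± 1.97 (Rarb) and 4.99 ± 1.16 TPM (Rarg; SD, n = 3 each), each within the spread of its neighbour. In induced libraries Rarg stood above both others in all 3. Rarg held 42.0%, 25.8% and 57.1% of the summed RAR TPM without induction and 69.0%, 74.5% and 81.8% in the induced libraries. Rara held 28.9%, 32.9% and 23.9% in the uninduced and 9.45%, 9.51% and 8.92% in the induced libraries. Rarb held 29.1%, 41.3% and 19.0% in the uninduced and 21.5%, 16.0% and 9.33% in the induced libraries. These shares, which a constant scaling factor does not change, did not overlap between groups for Rarg and Rara and overlapped for Rarb. Rarg was at 1.45, 0.785 and 2.39 times the level of Rara in uninduced libraries and 7.30, 7.83 and 9.17 times in induced libraries. The summed RAR level was 13.1, 14.2 and 10.2 TPM in uninduced and 17.2, 21.6 and 24.1 TPM in induced libraries.

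**Figure D3:**
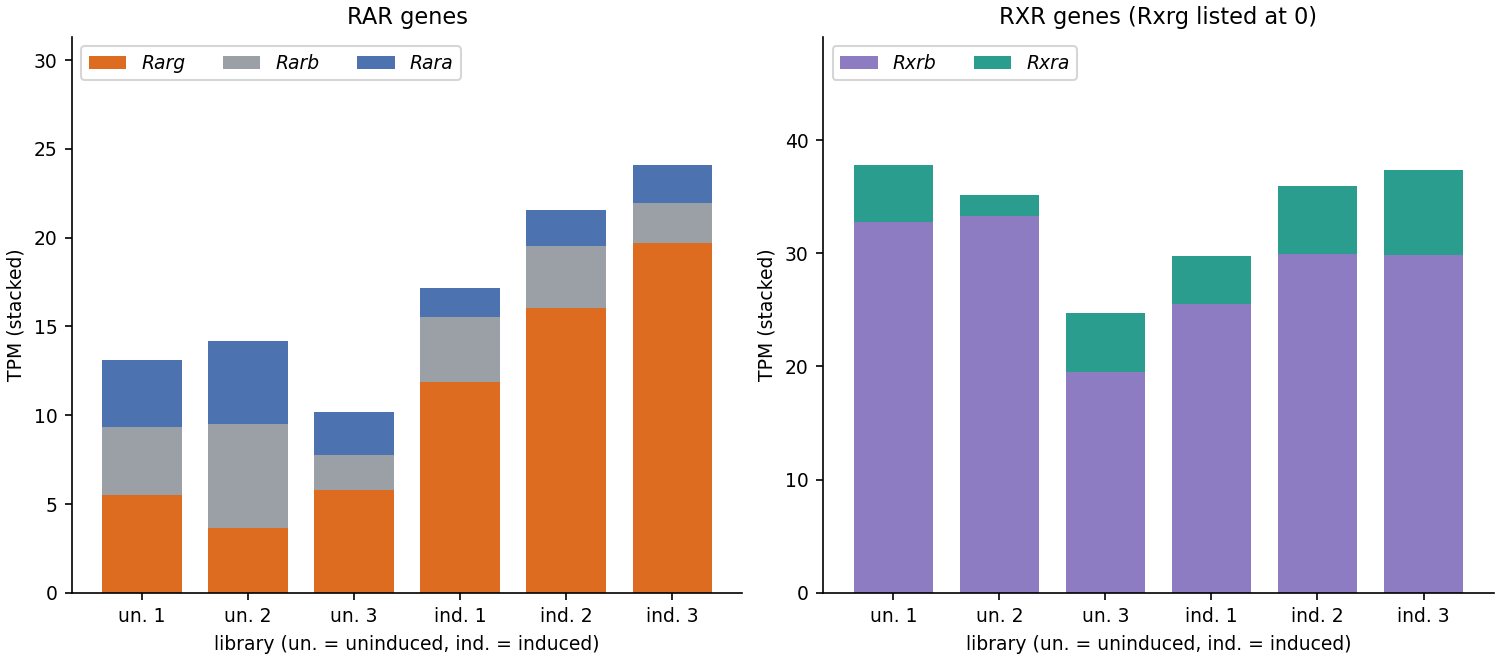
Stacked TPM of the RAR genes (left) and RXR genes (right) in each library; both axes start at 0. Rarg makes up 25.8% to 57.1% of the RAR bar in uninduced and 69.0% to 81.8% in induced libraries, and Rxrb is the larger part of every RXR bar.

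The RXR genes encode the partners of the RARs and of several other nuclear receptors. Rxrb (ENSMUSG00000039656, GRCm38 chr17:34031812-34038399, plus strand) was the highest of the 5 receptor genes in each library, at 32.8, 33.3 and 19.5 TPM without induction and 25.5, 29.9 and 29.9 TPM with induction. The induced values lay inside the uninduced range. Its log2 change was 0.030 (95% interval -0.52 to 0.58, adjusted p 0.951 by limma), and after median-of-ratios scaling 0.43 (adjusted p 0.279). Rxra (ENSMUSG00000015846, GRCm38 chr2:27676440-27762957, plus strand) was at 5.04, 1.93 and 5.18 TPM without induction and 4.28, 6.01 and 7.46 TPM with induction. The groups overlapped, with a log2 change of 0.51 (95% interval -0.38 to 1.39, adjusted p 0.443 by limma). It was 0.83 after median-of-ratios scaling (adjusted p 0.274) and 0.15 without uninduced replicate 2. Rxrg was listed at 0 in all 6 libraries. Rxra held 5.49% to 20.9% of the summed RXR TPM in uninduced and 14.4% to 20.0% in induced libraries, which overlap. RXR genes together had 2.88, 2.48 and 2.43 times the TPM of the RAR genes in uninduced libraries and 1.73, 1.67 and 1.55 times in induced libraries, without overlap. The Rarg and Rarb shares and the ratios between receptors were chosen after the values were seen and are descriptions.

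The other genes of the pathway were taken from 6 lists of 73 genes in all, of which 37 were tested and 26 were listed at 0 in every library. None was called higher and 3 were called lower, where 1.29% and 10.2% of all tested genes were. After median-of-ratios scaling 1 was called higher and 2 lower, where 2.88% and 3.1% of all tested genes were. After rescaling to nuclear protein-coding genes 4 were called higher and 2 lower, where 4.4% and 4.54% of the 10562 genes tested there were. The median log2 change of the 37 was -0.19 beside -0.35 for all genes.

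**Figure D4:**
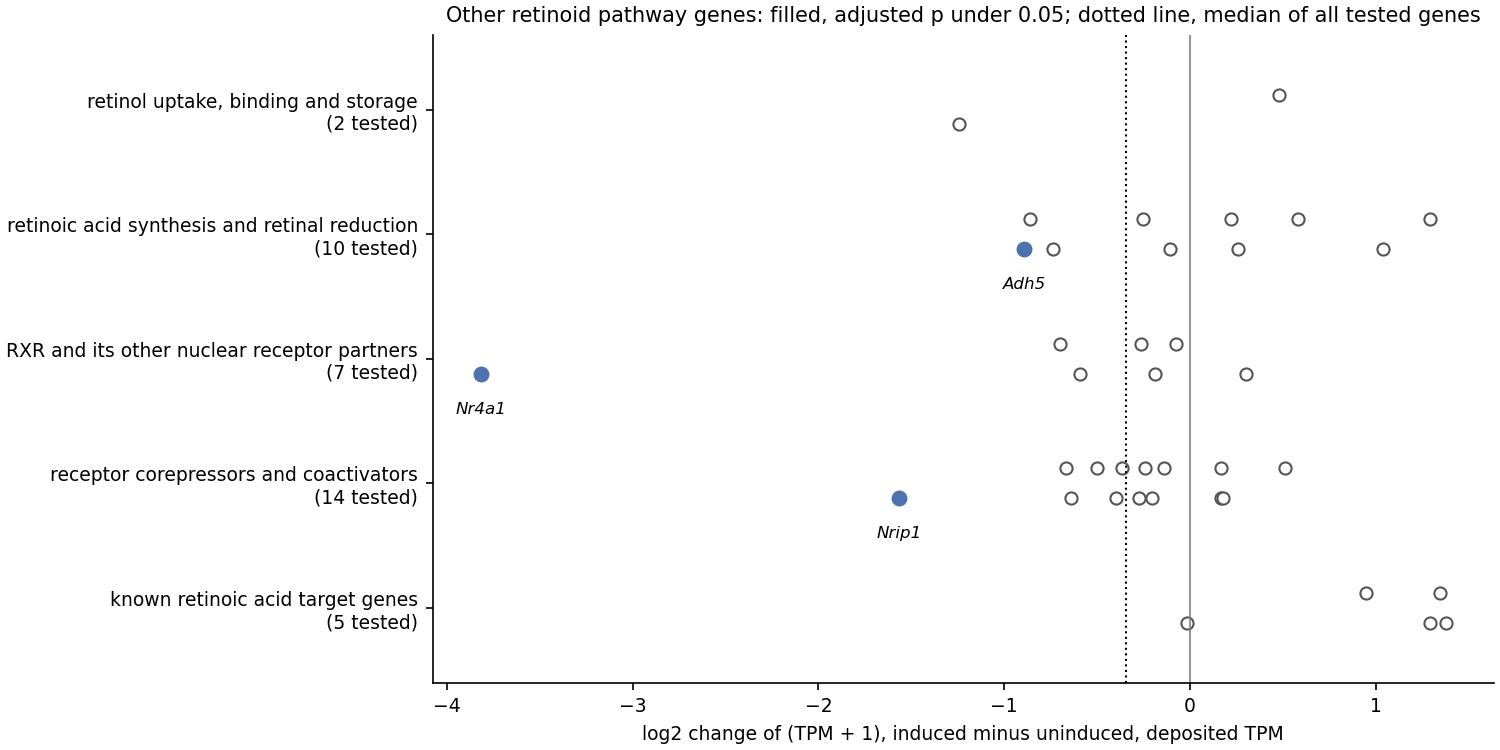
Change of each tested pathway gene as log2(TPM + 1), induced minus uninduced, by list, on the deposited scale; Dhrs3 belongs to 2 lists. The filled points Nr4a1, Nrip1 and Adh5 are called lower and no point is called higher.

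Corepressors and coactivators, the proteins that receptors recruit, were all expressed: 14 of 14 were tested, 1 was called lower on both scales and 13 were not called. Among all tested genes 10.2% were called lower, or 3.1% after median-of-ratios scaling. Nrip1, which encodes RIP140, a cofactor that binds ligand-bound receptors and represses them, was at 42.3, 41.1 and 29.8 TPM without induction and 11.7, 9.43 and 15.2 TPM with induction. The groups did not overlap. Nrip1 had a log2 change of -1.57 (SE 0.25, adjusted p 0.0056 by limma) and -1.18 after scaling (adjusted p 0.0146). Nrip1 was called lower in each of the 15 alternatives. Ncor1, a corepressor that unliganded receptors recruit, was at 98.5, 79.7 and 83.7 TPM without induction and 65.6, 52.6 and 82.0 TPM with induction, with a log2 change of -0.40 (adjusted p 0.226 by limma) and 0.0032 after scaling. The Ncor1 groups overlapped, and leaving out 1 library gave -0.56 to -0.24, the last without induced replicate 2.

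Retinol uptake, binding and storage genes were mostly at 0 in the table: 8 of 10 were listed at 0 throughout, among them the binding proteins Crabp1 and Crabp2 and the storage enzyme Lrat. Of the 2 tested, Fabp5 and Dgat1, neither was called. Fabp5 was at 38.4, 7.89 and 17.0 TPM without induction and 7.23, 5.98 and 7.23 TPM with induction, without overlap. Its log2 change was -1.24 (adjusted p 0.114 by limma) and -0.88 after median-of-ratios scaling (adjusted p 0.336). The Dgat1 groups overlapped, with a log2 change of 0.48 (adjusted p 0.455 by limma).

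Of 18 genes for synthesis and for the return of retinal to retinol, 10 were tested, 1 was called lower and 9 were not called. Among all tested genes 10.2% were called lower. Aldh1a2 and Aldh1a3, the other retinaldehyde dehydrogenases, were listed at 0 in all 6 libraries, so Aldh1a1 was the Aldh1a gene with the most TPM in every library. Adh5, an alcohol dehydrogenase better known for clearing formaldehyde, was at 35.5, 49.1 and 37.7 TPM without induction and 21.7, 22.2 and 20.0 TPM with induction. Its log2 change was -0.89 (SE 0.21, adjusted p 0.0247 by limma), and the call held in 6 of 15 alternatives. It was lost under median-of-ratios scaling (-0.50, adjusted p 0.167), quantile normalization (-0.49, adjusted p 0.172) and rescaling to nuclear protein-coding genes (-0.47, adjusted p 0.152). With an unchanged log2 value it was lost with no variance trend (adjusted p 0.0689) and with the replicate block (adjusted p 0.0606). It was also lost without uninduced replicate 2 (-0.75) or any induced replicate (-0.92 to -0.85), at adjusted p of 0.0701 to 0.0735. Dhrs3, which reduces retinal to retinol and is itself a retinoic acid target, was at 1.09, 0.480 and 2.18 TPM without induction and 2.94, 4.38 and 5.84 TPM with induction. Its groups did not overlap but it did not pass, at a log2 change of 1.29 (SE 0.44, adjusted p 0.0862 by limma) and 1.53 after scaling (adjusted p 0.0725). It passed after rescaling to nuclear protein-coding genes (1.57, adjusted p 0.0443), and its change was 0.58 with a pseudocount of 5 and 1.89 with 0.1. Dhrs4, of the same list, went the other way, at 23.0, 19.4 and 26.9 TPM without induction and 13.6, 13.4 and 9.77 TPM with induction. The Dhrs4 groups did not overlap, and it did not pass (log2 change -0.86, adjusted p 0.051 by limma). After median-of-ratios scaling its change was -0.48 (adjusted p 0.346). Of the degradation genes besides Cyp26b1, Cyp26a1 was at 0 and Cyp26c1 was too low to test.

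Nuclear receptors that pair with RXR gave 7 tested genes of 14, with 1 called lower, where 10.2% of all tested genes were. That gene was Nr4a1, an orphan receptor and immediate early gene, which was at 51.2 to 67.5 TPM in uninduced and 2.47 to 5.42 TPM in induced libraries (log2 change -3.82, adjusted p 0.000197 by limma, and -3.45 after scaling). The peroxisome proliferator receptor genes Ppara and Pparg were listed at 0 throughout.

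Genes known as retinoic acid targets in other cells gave 5 tested genes of 18, while 8 were listed at 0. None of the 5 was called on the deposited scale. Their median log2 change, which is the value of Dhrs3 and moves with the pseudocount as given for it, was 1.29, beside -0.35 for all genes. Cd38, a surface ectoenzyme that retinoic acid induces in myeloid cells, was at 1.92, 3.35 and 1.497 TPM without induction and 5.45, 5.97 and 11.3 TPM with induction. Its groups did not overlap, with a log2 change of 1.37 (SE 0.40, adjusted p 0.0519 by limma), and median-of-ratios scaling brought it past the threshold (1.69, adjusted p 0.0293). Hoxb5, a homeobox gene also used to mark long-term stem cells, was at 0.036, 2.13 and 1.05 TPM without induction and 3.55, 3.95 and 3.81 TPM with induction. It did not pass, at a log2 change of 1.34 (SE 0.48, adjusted p 0.0991 by limma) and 1.58 after scaling (adjusted p 0.0731). It passed after rescaling to nuclear protein-coding genes (1.62, adjusted p 0.0419), and its change was 0.54 with a pseudocount of 5 and 2.46 with 0.1. Tgm2, a transglutaminase, was the highest of the 5 at 75.5 to 102 TPM in uninduced and 84.2 to 97.0 TPM in induced libraries, with a log2 change of -0.017 (adjusted p 0.962 by limma) and 0.39 after scaling (adjusted p 0.123). Hoxa5, another homeobox gene, was at 2.74, 7.98 and 5.41 TPM without induction and 12.1, 7.48 and 12.96 TPM with induction. Its groups overlapped, and its log2 change was 0.95 (adjusted p 0.141 by limma), 0.61 without uninduced replicate 1 and 1.33 after rescaling to nuclear protein-coding genes, where it passed (adjusted p 0.0465). Dhrs3, Dhrs4, Fabp5, Dgat1, Hoxb5, Hoxa5, Tgm2 and Ncor1 were singled out after their values were seen.

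**Figure D5:**
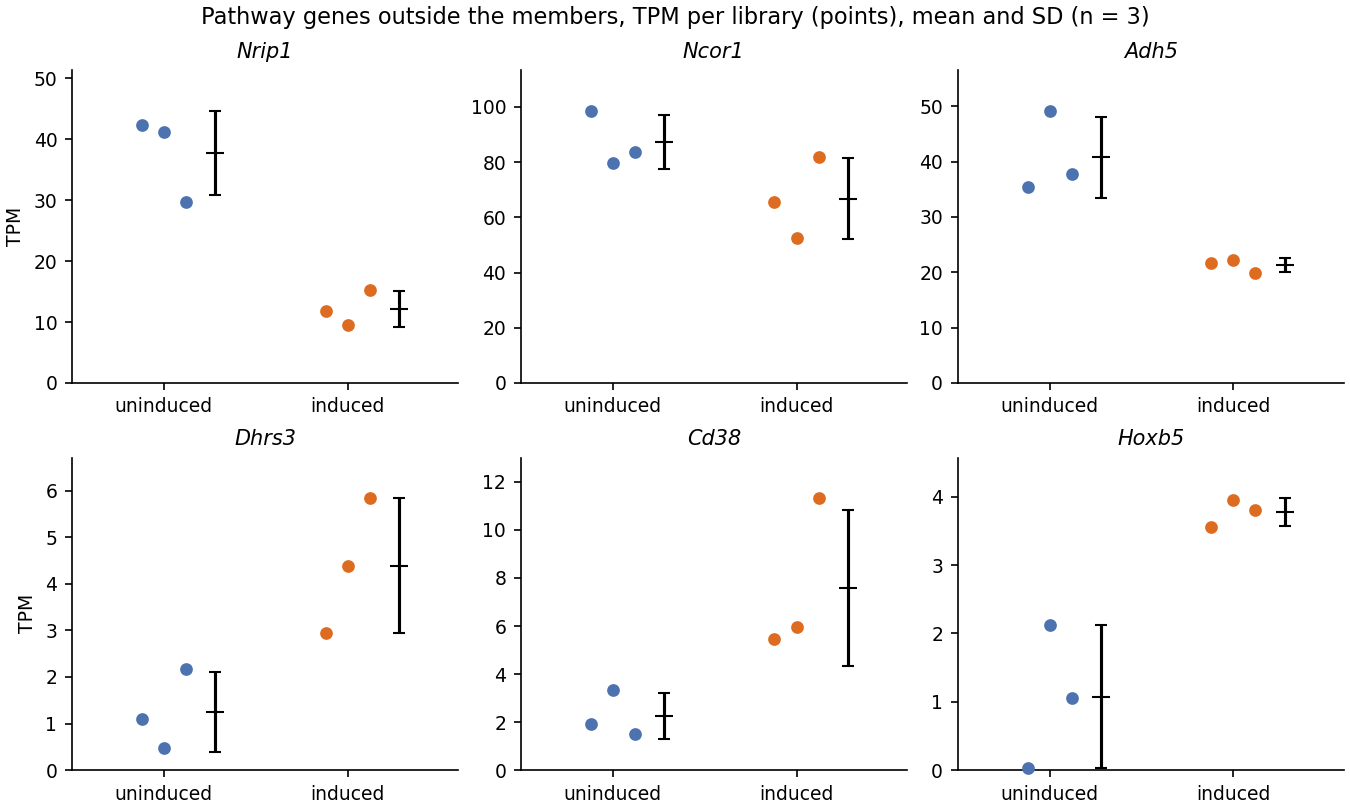
TPM of 6 pathway genes in each library, with mean and SD of 3 libraries in black and an axis from 0 in each panel. Groups do not overlap for any of them except Ncor1, which spans 79.7 to 98.5 TPM in uninduced and 52.6 to 82.0 TPM in induced libraries.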

How the data were processed

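Per the labels' protocols, a single-cell purification kit gave total RNA, and SMARTer stranded pico-input libraries were sequenced as read pairs. Per the submitters' processing notes, bcl2fastq, HISAT2, StringTie and DESeq2 were used with the build GRCm38; versions, roles, annotation and filters are not given in the sources used here. The authors deposited TPM values in 1 table of 60496 rows, 1 column per library. Rows were summed per gene ID (55471 IDs). Depth is unknown, so no counting interval is given.

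limma 3.58.1 in R 4.3.3 was fitted to log2(TPM + 1) of every gene whose mean reached 1 TPM, with a variance trend, two-sided, Benjamini-Hochberg adjusted over all 13470 genes at 0.05. Fold changes on this scale understate those of low genes. The fit was also run on simulated normal values that used its own variances, with known changes in genes of at least about 5 TPM only. That run therefore does not test genes under this level, or how well normal values describe these data. Groups follow the sample titles. Alternatives were pseudocounts of 0.1 and 5, the filter dropped or raised to 5 TPM, 3 other scalings (median of ratios, quantiles, nuclear protein-coding total), no variance trend, the replicate number as a block, and each library left out.

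The members and gene lists were chosen with earlier results of these data known. Named are all members, pathway genes called on the deposited or median-of-ratios scale, and those said to be singled out later. Positions come from GENCODE M21 (GRCm38), and promoter windows and motifs from RefSeq (GRCm38.p6), read with Python 3.11.15 and Biopython 1.88. Rbpr2 was matched to Stra6l by synonym. A few genes of the lists are not reported here and were left out of every list count.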

Additional observations from a re-analysis of the deposited data

How the results depend on the processing

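The 2 called genes of the 10 stayed at 2 or became 3 under settings that kept all libraries, the added one being Cyp26b1 after rescaling to nuclear protein-coding genes, and numbered 1 to 2 over the leave-one-out fits. Aldh1a1 was called throughout and Rarg was lost without induced replicate 2 or 3. The total of 1549 genes (174 higher, 1375 lower) became 752 with no filter, 806 (388 and 418) with median-of-ratios scaling, 814 (374 and 440) with quantile normalization, 944 (465 and 479, of 10562 tested) after rescaling to nuclear protein-coding genes, 767 with no variance trend and 611 to 1276 over the leave-one-out fits. The 3 called pathway genes (0 higher, 3 lower) numbered 6 (4 and 2) after rescaling to nuclear protein-coding genes, 4 (0 and 4) with the filter at 5 TPM, and 2 to 3 over the leave-one-out fits, with 2 when any induced library was absent. Rarb changed sign to 0.15 with median-of-ratios scaling, 0.15 with quantile normalization and 0.17 after rescaling, as did Tgm2 (0.39, 0.36 and 0.42) and, for the first and last, Ncor1 (0.0032 and 0.032). The same 3 scalings put the median of all genes at 0.0032, -0.0048 and 0.022, from -0.35. Over the leave-one-out fits Rarb was at -0.49 to 0.12, Rdh10 at -0.80 to 0.061, Rxra at 0.15 to 0.69, Rxrb at -0.21 to 0.16, Tgm2 at -0.15 to 0.065, and the Rxra share of RXR TPM differed by -0.11 to 7.61 percentage points. The cause of the other shifts was not tested.

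Under the replicate block 902 genes, 2 members and 2 pathway genes were called. Same-numbered libraries had deviations from their group means that correlated at 0.021, -0.015 and 0.017, so the numbers were not taken as pairs. The ratio of Aldh1a1 to Aldh1a7 was not computed because Aldh1a7 was at 0 in 4 libraries. Pseudocounts of 5 and 0.1 moved low genes by over 1.5 times in at least 1 direction, among them Cyp26b1 (0.61 and 1.42), Rara (-0.31 and -0.83) and Cd38 (0.77 and 1.70), with no call gained or lost among these. TPM without depth limits what can be said of genes near 0.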
